A study of Mus musculus with 7 samples.

Results

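The genes described here are 10 members of the sulfotransferase family to which Chst7, the target of the siRNA in this study, belongs: Chst1, Chst2, Chst3, Chst7, Chst11, Chst12, Chst13, Chst14, Chst15 and Ust. The rule that chose them names family and function and uses no measured value, though it was written with earlier results of these data known. Peaks of the 4 JUNB lists that share at least 1 bp were joined into regions, and a region went to the protein-coding gene whose nearest end lies within 100 kb of its median summit. By this rule the 10 genes owned 15 of 12655 regions, and 6 of the 10 owned at least 1 region. Ownership says which gene is closest and does not say that JUNB acts on it.

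The libraries are CUT&RUN maps of JUNB, which pairs with FOS proteins to form the transcription factor AP-1, made from the cell line iMGT-Myh6-eGFP-MEF. These are mouse embryonic fibroblasts in which doxycycline switches on the cardiac factors Mef2c, Gata4 and Tbx5 (MGT), with an eGFP reporter under Myh6. All cells were induced and were collected at day 1; they had been transfected with an siRNA against Chst7 (siChst7, 2 libraries) or with a control siRNA (siControl, 2 libraries). The series asks whether targeting Chst7 during early cardiac reprogramming alters where JUNB sits. The groups follow the sample titles and treatment labels, while the submitters' treatment protocol lists siControl, siJunb and siH1f0, with siChst7 missing from it. A peak list carries no transcript level, so neither the loss of Chst7 nor the fibroblast identity of the cells could be checked by expression here. The 3 IgG libraries, 2 siChst7 and 1 siControl, were not analysed here. The titles number the libraries as biological replicates but do not say whether these were separate cultures, so a p-value over them reflects only their own spread, part of which may be technical. The lists differ in length: siChst7 replicates 1 and 2 held 10163 and 4735 peaks, against 6469 and 5827 for siControl, and the labels state 30 M reads for each library.

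Sulfotransferases of the Golgi move sulfate from the donor PAPS onto growing sugar chains. In chondroitin sulfate they act on the galactosamine or the uronic acid of the repeating unit, and the resulting pattern sets which growth factors and receptors bind a matrix proteoglycan. Chst3 and Chst7 are known as 6-O-sulfotransferases of chondroitin, Chst11, Chst12 and Chst13 as 4-O-sulfotransferases, and Chst14 as the 4-O-sulfotransferase of dermatan sulfate. Chst15 adds a further sulfate to a galactosamine that already carries one, Ust sulfates the uronic acid, and Chst1 and Chst2 act on the galactose and glucosamine of keratan sulfate and related glycans. Fibroblasts make much of the chondroitin and dermatan sulfate of connective tissue.

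The same 4 family genes owned a JUNB region called in both lists of either siRNA. Chst1, Chst3, Chst11 and Ust each owned a region called in both siChst7 lists, and the same 4 genes did so for both siControl lists, against 11.3% and 11.0% of 21900 protein-coding genes. These 4 also owned every one of the 6 family regions called in all 4 lists; 8.32% of protein-coding genes owned such a region. Chst12 and Chst14 each owned a single region, called in 1 list. Chst2, Chst7, Chst13 and Chst15 owned none, and in any list 25.1% of protein-coding genes owned at least 1. Whether the family stands apart from other genes was not tested.

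The length of genome that can send a region to a gene differed widely within the family and bears on these counts. A median of 150.8 kb lay nearest to a family gene, against 46.4 kb for a protein-coding gene, so 6 of the 10 (Chst1, Chst2, Chst7, Chst11, Chst15 and Ust) were above the 75th percentile of all genes. Of genes above that percentile 15.4% owned a region of all 4 lists, and of these 6 family genes it was Chst1, Chst11 and Ust. Of the remaining genes 5.96% did, and of the other 4 family genes it was Chst3. Per 100 kb of nearest genome the family had 0.93 regions, and 0.37 regions of all 4 lists, against 0.65 and 0.14 over all protein-coding genes. Without Chst11, the other 9 genes had 0.59 and 0.30.

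**Figure D1:**
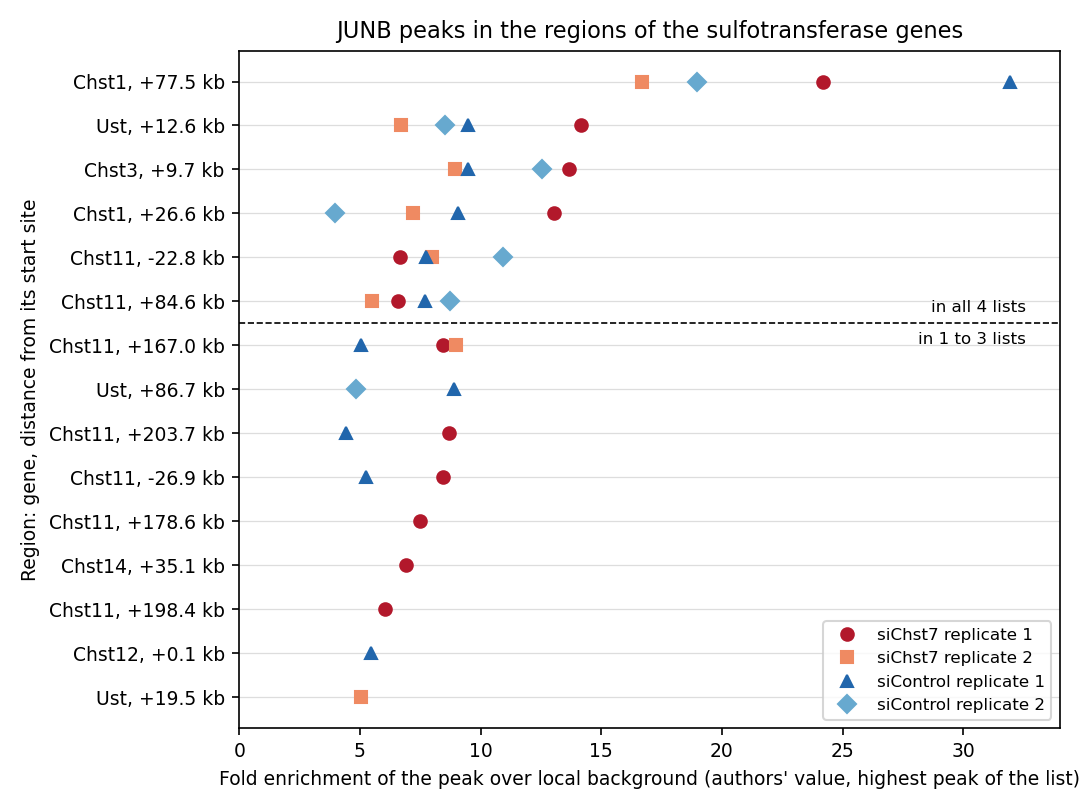
Fold enrichment of the highest peak in each list (x axis) in each of the 15 regions (rows, named by gene and distance from its start site); circles and squares are siChst7 replicates 1 and 2, triangles and diamonds siControl replicates 1 and 2. The far Chst1 region is at 16.7 to 31.9, and no other family peak exceeds 14.2.

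Of the chondroitin 6-O-sulfotransferases, Chst3 had 1 JUNB region and Chst7 had none. The Chst3 region (chromosome 10, 60209276 to 60210136, mm10) lay inside the gene, 9.74 kb after its start site and 12.6 kb from its nearer end. Fold enrichment over local background, the authors' value for each peak, was 13.6 and 8.96 in siChst7 replicates 1 and 2, against 9.49 and 12.5 in siControl replicates 1 and 2. All 4 lists held the peak, and the values of the groups overlap. In their own lists these peaks ranked 863 of 10163 and 1020 of 4735 by fold in siChst7, against 1407 of 6469 and 456 of 5827 in siControl.

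Chst7 (chromosome X, 20058963 to 20099991) lay far from any JUNB region although 216.5 kb of genome is nearest to its ends, more than for 92.6% of genes ranked by that length. Its nearest region was 279 kb away, in siChst7 replicate 1, where the peak had a fold of 5.77 and belonged to Rp2. In the other lists the nearest region was 890 kb away for siChst7 replicate 2, against 588 kb in each siControl list. A nearest region at least as distant as 279 kb was found for 20.5% of genes, counted over all chromosomes. Chst7 is on chromosome X, and how densely regions lie on X was not compared with the other chromosomes. The siRNA target thus had no region at which to compare the groups. The 250 bases before the Chst7 start site (RefSeq, GRCm38.p6, chrX:20059320-20059569, plus strand) are shown because Chst7 is the targeted gene, with the GC box GGGCGG, read on both strands, in capitals.
Chst7: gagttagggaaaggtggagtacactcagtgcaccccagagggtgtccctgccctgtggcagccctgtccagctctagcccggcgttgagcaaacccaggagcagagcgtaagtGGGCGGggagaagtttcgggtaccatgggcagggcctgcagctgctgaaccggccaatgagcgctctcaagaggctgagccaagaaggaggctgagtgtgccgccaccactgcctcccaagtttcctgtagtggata

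Among the 4-O-sulfotransferases, Chst11 held 7 of the family's 15 JUNB regions, more than any other member, and Chst12, Chst13 and Chst14 had little. Chst11 (chromosome 10, 82984440 to 83195904) owned 7 regions: 7 and 3 were called in siChst7 replicates 1 and 2, against 5 and 2 in siControl replicates 1 and 2. The numbers overlap between groups, and in each group the longer list held more. Only 0.699% of protein-coding genes owned as many regions (153 of 21900), and Chst11, with 260.8 kb nearest to it, had 2.68 regions per 100 kb. That share is over genes of every length, and Chst11 is at the 95.8th percentile of nearest genome. Of its 7 regions, 2 were in all 4 lists. By start sites within 100 kb, its regions at 167.0, 178.6, 198.4 and 203.7 kb after the start site went to no gene.

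The Chst11 regions fell into an upstream pair, a middle region and a group toward the end of the gene. Of the upstream pair, the region 22.8 kb before the start site (82962064 to 82963170) was in all 4 lists, with folds of 6.67 and 7.99 in siChst7, against 7.74 and 10.9 in siControl. In siControl replicate 1 it held a weaker neighbouring peak as well, at a fold of 4.84. The region 26.9 kb before the start site (82958361 to 82958899) was called in siChst7 replicate 1 at 8.45 and in siControl replicate 1 at 5.24. Replicate 2 of either group did not list it.

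Inside Chst11, a region 84.6 kb after the start site (83069825 to 83070535) was in all 4 lists. Its folds were 6.56 and 5.49 in siChst7, against 7.71 and 8.73 in siControl. Both siChst7 values lie below both siControl values, but folds of separately called lists do not measure a change in binding. The region 167.0 kb after the start site (83152074 to 83152848) was in 3 lists, at 8.43 and 8.99 in siChst7, against 5.06 in siControl replicate 1 and no peak in siControl replicate 2. Closer to the 3' end, the regions at 178.6 and 198.4 kb were called in siChst7 replicate 1 alone, at folds of 7.50 and 6.04. The last one, at 203.7 kb, had 8.68 in siChst7 replicate 1, against 4.44 in siControl replicate 1, which ranked 6087 of that list's 6469 peaks.

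The rule's limit of 100 kb leaves out places deep inside the longest genes. A further region inside Chst11, 100.7 kb from its nearer end and so just outside the limit, had 9.03 in siChst7 replicate 1, against 6.34 and 5.50 in siControl, and was not listed for siChst7 replicate 2. The family regions just inside the limit were the Ust region at 86.7 kb and the Chst11 region at 85.6 kb from a gene end.

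**Figure D2:**
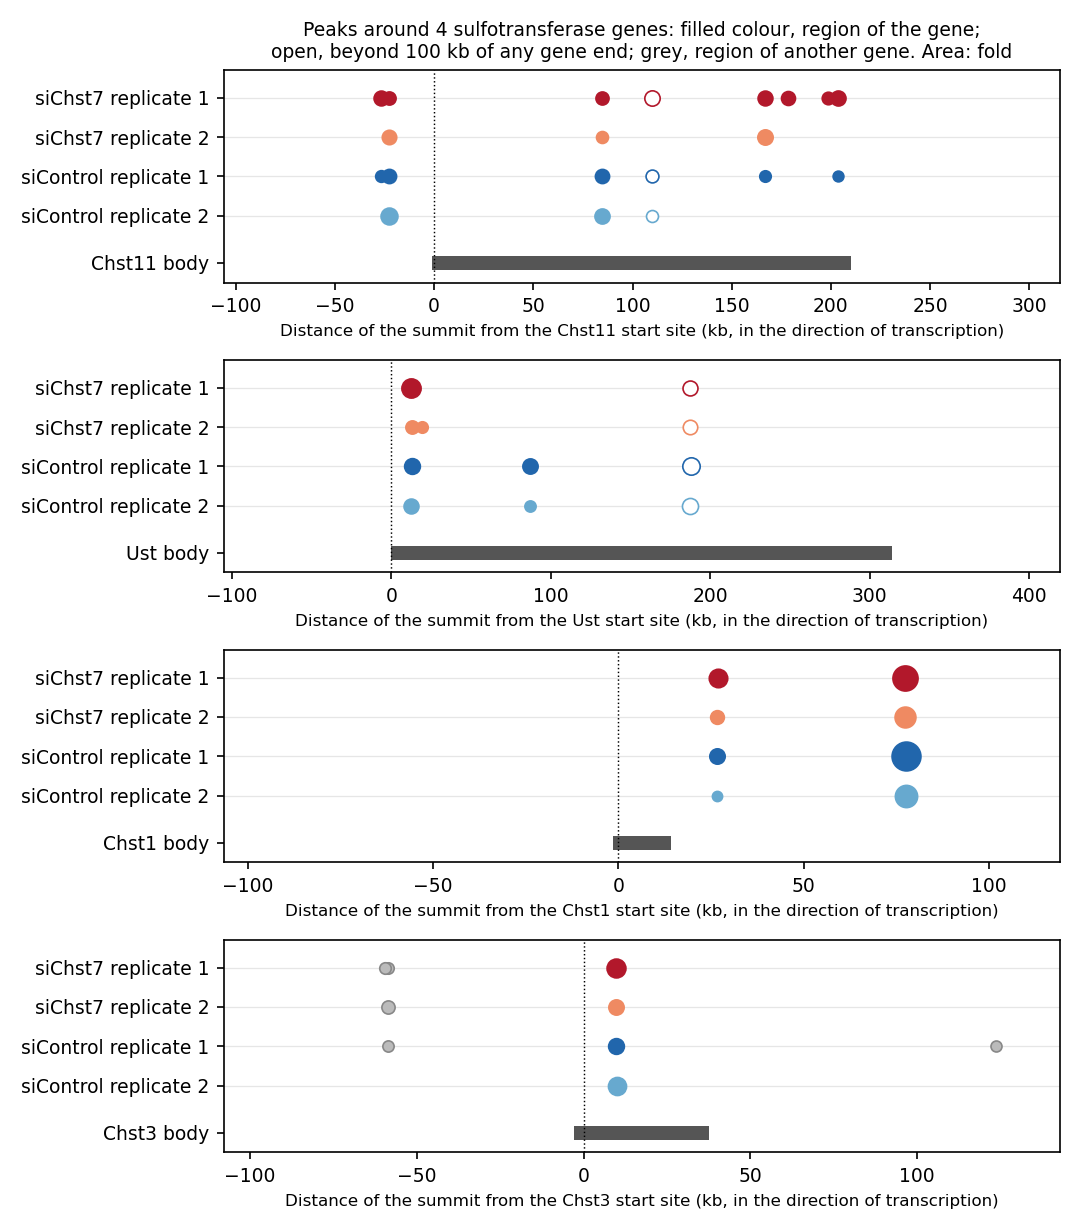
Peaks around Chst11, Ust, Chst1 and Chst3 by library (rows, siChst7 above siControl), against the distance of the summit from the start site in kb; circle area follows fold, filled colours mark regions of the gene, open circles summits beyond 100 kb of any gene end, and grey ones regions of other genes. Chst11 peaks run from 26.9 kb before to 203.7 kb after its start site, and both Chst1 regions lie beyond the gene.

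Chst12 had the one family region at a start site. It was a narrow region of 232 bp (chromosome 5, 140505667 to 140505898) with its summit 0.142 kb after the start site, and siControl replicate 1 alone listed it, at a fold of 5.45, rank 4882 of 6469. The nearest region to Chst12 in the other lists was 66.4 and 179 kb away in siChst7, against 311 kb in siControl replicate 2. Chst14 owned a region 33.0 kb beyond its end (chromosome 2, 118961350 to 118962212), called in siChst7 replicate 1 alone at 6.92, and Bahd1, at 37.1 kb, is nearly as close. Chst13 owned none. Its nearest region, 31.0 kb away, belonged to Uroc1 and was in all 4 lists, at 8.14 and 7.57 in siChst7, against 5.80 and 6.83 in siControl. Only 22.3 kb of genome is nearest to Chst13, the least in the family.

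The 250 bases before the start sites of Chst12, whose region begins downstream of this window and outside it, and of Chst11, which had the most regions, are shown with the GC box in capitals as above (RefSeq, GRCm38.p6, plus strand, chr5:140505359-140505608 for Chst12 and chr10:82985247-82985496 for Chst11).
Chst12: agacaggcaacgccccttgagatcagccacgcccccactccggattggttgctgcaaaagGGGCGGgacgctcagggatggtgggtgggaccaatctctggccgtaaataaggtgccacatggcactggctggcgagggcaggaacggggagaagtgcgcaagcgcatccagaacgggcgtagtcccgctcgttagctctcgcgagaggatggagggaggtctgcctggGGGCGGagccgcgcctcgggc
Chst11: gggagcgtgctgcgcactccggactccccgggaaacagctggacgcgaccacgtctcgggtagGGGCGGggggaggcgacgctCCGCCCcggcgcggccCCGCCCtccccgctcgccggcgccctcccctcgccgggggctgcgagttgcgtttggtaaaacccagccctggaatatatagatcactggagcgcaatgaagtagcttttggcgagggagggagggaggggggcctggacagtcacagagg

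All 10 genes matched the promoter table, with 11 windows of 250 bases before a start site. Chst15 has overlapping windows among the 11. The AP-1 motif TGANTCA was in 0 of the 11, against 6.13% of 21263 such windows of protein-coding genes, and the related motif TGACGTCA in 0 of 11, against 1.92%. The GC box, a binding motif of SP factors and common in CpG-rich promoters, was in 10 of 11, against 42.6%. The exception was Chst1, whose window has 1 CpG and 51.6% G and C, against 8 CpG and 61.2% for Chst7 and 26 CpG and 70.0% for Chst11. The medians over the 21263 windows were 10 CpG and 55.6%, and the motif shares were not matched for base composition. A missing motif says only that these letters are not in these windows. Sequence of the JUNB regions themselves was not used here.

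Of the enzymes that act on other positions of chondroitin, Ust had 3 JUNB regions and Chst15 had none. Ust (chromosome 10, 8204753 to 8518825, read from high to low coordinates) has 400 kb of genome nearest to it, the most in the family, and its 3 regions lay in the first 86.7 kb of the gene. The region 12.6 kb after the start site (8505693 to 8506524) was in all 4 lists, at 14.2 and 6.72 in siChst7, against 9.49 and 8.51 in siControl. The siChst7 libraries lie on either side of both siControl libraries. The region at 19.5 kb was listed for siChst7 replicate 2 alone, at 5.05.

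The Ust region 86.7 kb after the start site (8431839 to 8432263) was the only one of the 15 called in both lists of one siRNA and in neither list of the other. No siChst7 list held it, against folds of 8.91 and 4.82 in siControl replicates 1 and 2. In siControl replicate 2 it stood near the end of the list, at rank 5119 of 5827, with a −log10 q of 3.23, and the lists end near 2. Of all regions 1.60% were called in both siControl and neither siChst7 list. The converse class, both siChst7 and neither siControl list, had 0 of the 15 family regions, against 3.88% of all regions. The siControl count fell to 0 with a fold of at least 5, at equal list length and with a limit of 20 kb, and at equal list length the siChst7 count was 1. A region absent from a list may hold signal below that list's threshold.

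A region of all 4 lists also lay inside Ust beyond the limit, 126.6 kb from its nearer end (8330830 to 8331496). Its folds were 8.57 and 8.06 in siChst7, against 11.6 and 9.93 in siControl. Chst15 (chromosome 7, 132235779 to 132323534) was the most remote of the family: its nearest region was 735 kb away, in siChst7 replicate 2, and 999.6 kb away in each other list. A nearest region at least as distant was found for 10.1% of genes.

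**Figure D3:**
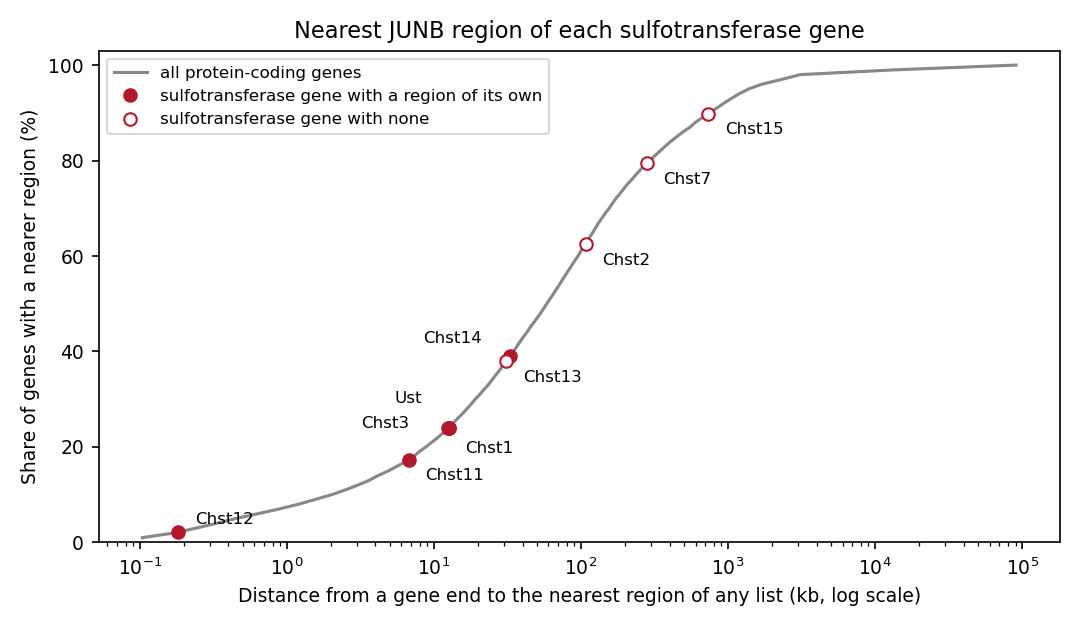
Distance from a gene end to the nearest region of any list (x axis, kb, log scale) against the share of genes with a nearer region (y axis); the grey curve is all protein-coding genes, filled points are family genes with a region of their own and open points those with none. Chst12 is at 0.182 kb, Chst7 at 279 kb and Chst15 at 735 kb.

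Of the keratan sulfate and glycan enzymes, Chst1 had the highest JUNB peak of the family and Chst2 had none. Both Chst1 regions lay beyond the 3' end of the gene in a stretch whose next protein-coding gene, Slc35c1, was over 167 kb from either. The far region, 63.4 kb past the end (chromosome 2, 92678006 to 92679088), had folds of 24.2 and 16.7 in siChst7, against 31.9 and 19.0 in siControl. It ranked 136 of 10163 and 129 of 4735 in siChst7, against 22 of 6469 and 102 of 5827 in siControl, so that every list had it among its top 2.72% of peaks by fold. The near region, 12.5 kb past the end (92627625 to 92628247), had 13.1 and 7.19 in siChst7, against 9.06 and 3.97 in siControl. It is in the top 9.57% of siChst7 replicate 1 and close to the end of the list in siControl replicate 2, at rank 5671 of 5827.

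Chst2 (chromosome 9, 95400926 to 95407270) had its nearest region 107.4 kb away, just outside the limit, called in siChst7 replicate 1 at 5.11 and nearer to U2surp. In siChst7 replicate 2 and both siControl lists the nearest region was 407 kb away.

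Most family regions lay away from gene ends: 13 of 15 were over 10 kb from the ends of their gene, against 56.5% of owned regions. Of the 15, 10 lay inside their own gene, 2 upstream and 3 downstream, and this split is not given for all regions. Of the 6 in all 4 lists, 3 lay inside their own gene. A wider count, regions of 4 lists inside any protein-coding gene, whether owned or not, gave 51.0%. All 6 family regions of 4 lists lay over 10 kb from the ends, against 60.8% of owned regions of all 4 lists. A gene with more nearest genome can own regions farther from its ends, and the family median was 150.8 kb, against 46.4 kb. Chst11 alone owned 7 of the 15 regions. These shares were not adjusted for either. The near Chst1, the Chst3 and the Ust region were 12.5, 12.6 and 12.6 kb from an end. The 6 regions had a median width of 846.5 bp, against 928 bp for all owned regions of 4 lists.

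Summit positions could be set side by side in the 6 regions of all 4 lists, by the highest peak of each list. In the far Chst1 region the summits of the 4 libraries lay within 66 bp. In Chst3 the siChst7 summits were 237 and 263 bp from the lowest summit, against 42 and 0 bp for siControl, so that 195 bp separated the groups. In 33.2% of all regions of 4 lists the siChst7 summits lay on one side of the siControl summits, and 2 of the 6 family regions did, Chst3 and the far Chst1 region. A gap of at least 195 bp, the value of Chst3 itself, was found in 3.63% and in 1 of the 6 family regions. The median spread of summits was 261 bp in the 6 family regions, against 186 bp in all regions of 4 lists. In the near Chst1 region siChst7 replicate 1 alone was at 259 bp, with the other libraries at 0 to 42 bp. Whether the Chst3 gap follows the siRNA was not tested. In the Ust region siChst7 replicate 1 and siControl replicate 2 had summits at 221 and 265 bp, and siChst7 replicate 2 and siControl replicate 1 at 0 and 9 bp, so that its summits did not divide by siRNA.

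**Figure D4:**
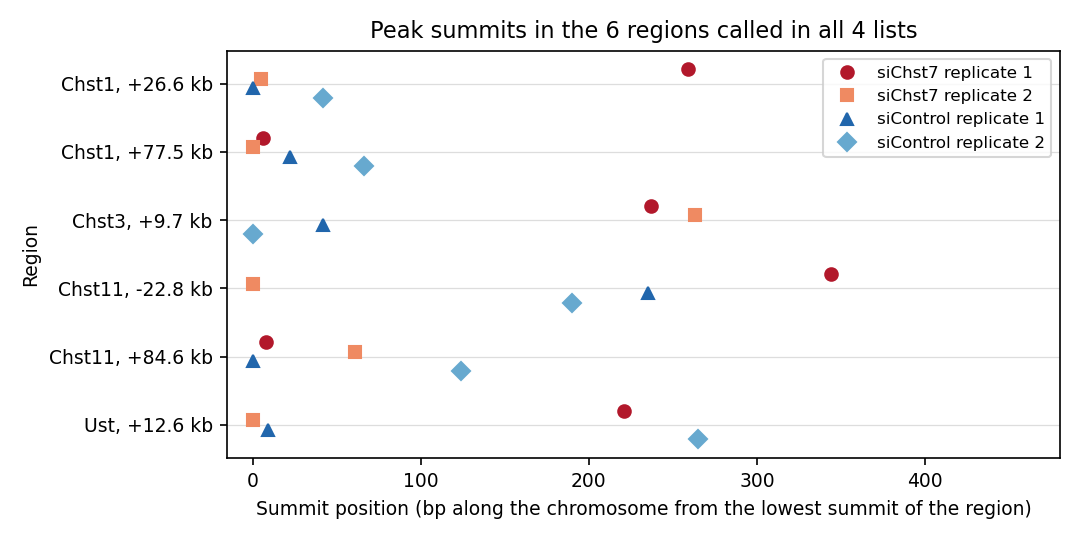
Summit of the highest peak of each library (x axis, bp along the chromosome from the lowest summit of the region) in the 6 regions of all 4 lists (rows); symbols mark the libraries. The Chst3 summits divide by siRNA group with 195 bp between the groups, and those of Ust do not.

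Counted over the family, the siRNA groups did not separate. Family genes owned 12 and 8 regions in siChst7 replicates 1 and 2 (mean 10.0 ± 2.83, SD, n = 2), against 11 and 7 in siControl (mean 9.0 ± 2.83, SD, n = 2). The difference, siChst7 minus siControl, was 1.0 (two-sided exact permutation over the 4 libraries, p = 0.667; such a test cannot go below 0.333). It was −1.5 without siChst7 replicate 1 and −1.0 without siControl replicate 2. As a share of each list's regions the family took 0.119% (exact Clopper-Pearson 95% interval 0.0617 to 0.208) and 0.173% (0.0749 to 0.341) in siChst7, against 0.174% (0.0868 to 0.311) and 0.124% (0.0498 to 0.255) in siControl. The difference in mean share was −0.00233 percentage points (exact permutation, two-sided, p = 0.667), and the sign turned in several other settings. Intervals cover counting error only. A p in this design does not show that the groups are alike.

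Of the 15 family regions, 6 were in 4 lists, 1 in 3, 3 in 2 and 5 in 1, and 46.7% of all regions were in 1 list. Regions in all 4 lists were 6 of 15, against 22.0% of all regions. Of the 5 in a single list, 3 belonged to siChst7 replicate 1, the longest list, which held 62.4% of all single-list regions. At equal list length, taking from each list as many of its best peaks by q as the shortest holds, the family had 10 and 8 regions in siChst7, against 7 and 5 in siControl, a difference of 3.0 (two-sided exact permutation p = 0.333, the smallest possible). The numbers no longer overlap there.

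Genes with related tasks were counted in the same way, with no test between the lists. Over all protein-coding genes, 25.1% owned a region in any list and 8.32% a region of all 4 lists. Of 14 genes that build the chondroitin chain, 0 owned a region of all 4 lists and 4 a region in any list. Of 9 other carbohydrate sulfotransferases, 0 owned a region in any list. Of 15 heparan sulfotransferases 5 owned a region in any list and 1 a region of all 4 lists, Ndst1, which starts heparan sulfation. The median length of nearest genome was 65.6 kb for chain building, 33.5 kb for the other carbohydrate sulfotransferases and 274.8 kb for the heparan sulfotransferases, against 150.8 kb for the family. Of 10 genes of chondroitin and dermatan breakdown 4 owned a region in any list and 2 a region of all 4 lists. Those 2 were Arsb, the lysosomal sulfatase that removes 4-O-sulfate, at 21.3 and 11.5 in siChst7, against 11.6 and 14.9 in siControl, and Hexa, a lysosomal hexosaminidase, at 15.6 and 9.88 in siChst7, against 14.8 and 12.8 in siControl. Of 8 genes of sulfate supply Bpnt2, a Golgi phosphatase that clears the by-product of sulfation, was the one with a region, which was in all 4 lists, at 10.7 and 6.50 in siChst7, against 5.15 and 5.59 in siControl. For reference, 4 of 8 fibroblast genes (Col1a1, Fbn1, Thy1 and Vim) owned a region of all 4 lists, and 6 of the 8 a region in any list. The median length of nearest genome was 151.3 kb for these fibroblast genes, 24.6 kb for breakdown and 72.3 kb for sulfate supply.

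**Figure D5:**
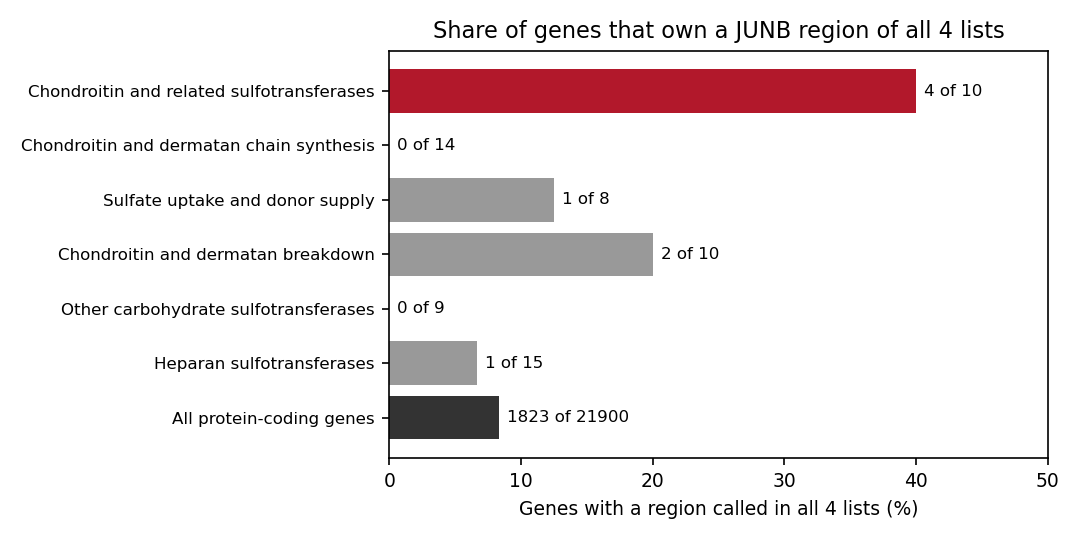
Share of genes that own a region of all 4 lists (x axis, percent) in the family, the lists of related tasks and all protein-coding genes. Counts stand beside the bars. The fibroblast genes, 4 of 8, are not drawn. The sulfotransferase family has 4 of 10, heparan sulfotransferases 1 of 15 and all protein-coding genes 1823 of 21900.

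By number of regions in the 4 libraries, in the order siChst7 replicates 1 and 2 and siControl replicates 1 and 2, Chst3 with 1, 1, 1 and 1 had the counts of 570 other genes and Chst1 with 2, 2, 2 and 2 those of 48. Ust with 1, 2, 2 and 2 had those of 7, of which Synpr, Ppargc1a and Dip2c were nearest to it in length of nearest genome. Chst11 with 7, 3, 5 and 2 shared its counts with 1 gene, Slc6a6. These likenesses rest on 4 libraries and on list membership alone.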

How the data were processed

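Of 7 samples, the 4 JUNB libraries had peak lists and the 3 IgG libraries were not analysed here. Per the submitters' processing notes, Bowtie2, MACS3 and the build mm10 were used; versions, settings and the control library are not given in the sources used here. Peak names give one list per library. The authors' peak caller gave each deposited peak an integer score, which was not used, a fold enrichment (a ratio over local background), and a p-value and q-value as −log10. Fold describes peaks within a list; read depth per region is unknown.

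Coordinates are 1-based. Genes and promoter windows came from RefSeq tables of GRCm38.p6, the assembly of mm10; exons and the genome sequence were not used here. Gene ends gave ownership; start sites, for 17492 of 21900 protein-coding genes, came from the promoter windows. Nearest genome is the length closer to a gene's ends than to others', within 100 kb.

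Numbers of regions and shares per library were compared by exact permutation, two-sided. The text names all 10 family genes, and genes of 6 other lists (64 genes, all matched, Impad1 as Bpnt2) that own a region of all 4 lists. Members and lists were chosen with earlier results of these data known. Alternatives were joining at 50% reciprocal overlap, joining windows of 100 bp on either side of summits, −log10 q of at least 3, fold of at least 5, equal list length, a limit of 20 kb, gene bodies extended by 5 kb, start sites, leaving out each library, and a replicate block. On simulated lists over 21900 genes, 1837 of 1842 regions planted within 40 bp of gene ends were recovered with their gene and lists. This checks the steps only, since regions far from gene ends were not simulated. Software was Python 3.11.15, NumPy 2.4.6, pandas 2.3.3, SciPy 1.17.1 and Matplotlib 3.10.9.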

Additional observations from a re-analysis of the deposited data

How the results depend on the processing

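Family genes with a region in both lists of each siRNA numbered 3 to 4 in every alternative with 4 lists. They numbered 4 to 5 when 1 library was left out, where a gene needs fewer lists. Genes with a region of all lists lost Ust with summit windows, Chst11 with a limit of 20 kb and Chst1 with gene bodies. Family regions of all 4 lists numbered 3 with a limit of 20 kb, against 6, and 4 to 6 in the other alternatives with 4 lists. With 1 library left out, family regions in all remaining lists numbered 6 to 7. The difference in family regions per library, siChst7 minus siControl, was 0 with gene bodies and −0.5 by start sites, 2.0 with −log10 q of at least 3, 2.5 with a fold of at least 5 and 3.0 at equal list length, against 1.0, and −1.5 to 3.0 when 1 library was left out. The difference in share, −0.00233 percentage points, was 0.0140 with −log10 q of at least 3, 0.0267 with a fold of at least 5, 0.0638 at equal list length and 0.00223 with a limit of 20 kb, and −0.0293 to 0.0228 when 1 library was left out. Regions in both siChst7 and neither siControl list numbered 1 at equal list length, against 0, and 0 to 3 when 1 library was left out, where a region needs fewer lists. Regions in both siControl and neither siChst7 list numbered 0 with a fold of at least 5, at equal list length and with a limit of 20 kb, against 1, and 1 to 2 when 1 library was left out; the Ust region has a fold under 5 in siControl replicate 2 and lies over 20 kb from a gene end. For the other changes the cause was not tested.

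With a replicate block the difference in regions was 1.0 (exact permutation within pairs, p = 0.5, the smallest possible) and that in share −0.00233 (p = 1). Over 12655 regions, the correlation of replicate 1 minus replicate 2 between the groups was −0.032. It cannot show whether same-numbered libraries were paired. Every region had to be called in some list, and 46.7% were in a single list, where 1 siRNA group has no difference to compare. The family counts fell from replicate 1 to replicate 2 in both groups, from 12 to 8 in siChst7 and from 11 to 7 in siControl. The length of the lists limits what a missing region shows.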
